A study of Mus musculus with 20 samples.

Results

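The antioxidant, glutathione and metallothionein genes are 40 genes chosen by name and by what their products do, of 20970 genes with a probe on the arrays and 15102 genes tested. They fall into 8 groups by role, from superoxide dismutases to metallothioneins. All 40 members passed the signal limit, and the probe used for each was well above background on all 20 arrays. Reactive oxygen species are removed by a chain of enzymes. Superoxide dismutases turn superoxide into hydrogen peroxide, which catalase, the glutathione peroxidases and the peroxiredoxins reduce further, and the glutathione, thioredoxin and glutaredoxin systems supply the electrons. NRF2, encoded by Nfe2l2, is the transcription factor that induces many of these genes, and KEAP1 marks it for breakdown. Metallothioneins are small cysteine-rich proteins that bind zinc and copper. In the striatum, methamphetamine (Meth) is best known for releasing dopamine, whose oxidation yields reactive oxygen species.

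Whole-transcriptome one-colour arrays were made from the brains of C57BL/6J male mice in 4 groups of 5. Every mouse carried a Tet-binding protein under the GFAP promoter, which is active in astrocytes, and every mouse received doxycycline at 100 mg/kg for 7 days. Tat+ mice also carried the HIV-1 Tat gene, which this system switches on, and Tat− mice did not. Meth mice received 2 mg/kg Meth and Sal mice saline for 7 days. Groups are named by transgene and injection, so that Tat−/Sal, for instance, is without Tat and given saline. By the sample labels the tissue is the left hemisphere of the brain, taken at 6 to 7 weeks of age and 24 h after injections ended. The methods instead give caudate putamen, taken 1 h after a challenge with 1 mg/kg Meth that followed 7 days of abstinence, at 3 to 5 months of age, so the region and the last Meth dose of all groups are not settled. All 10 striatal neuron markers were well above background on every array, and of 8 cortical neuron markers 3 were so on all 5 arrays of Tat−/Meth and 4 on all arrays of each other group, with Neurod1 on none.

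The placing of the arrays limits the comparisons. Slide 1 held the 5 Tat−/Meth arrays and no others. Slide 2 held the 5 Tat−/Sal arrays with Tat+/Meth replicates 1 to 3, and slide 3 held the 5 Tat+/Sal arrays with Tat+/Meth replicates 4 and 5. Tat−/Meth and slide 1 thus cannot be told apart in any comparison with this group or in the interaction. The bright corner control spots read 14.66 to 15.06 log2 units on slide 1 and 16.80 to 17.42 on slides 2 and 3. The 75th percentile of signal was 9.64 to 9.79 on slide 1 and 9.75 to 10.34 elsewhere. Values below are log2 processed signals scaled to that percentile. A difference is given in log2 units ± SE from a limma fit of all 20 arrays, with 5 arrays against 5, and calls rest on a p under 0.05 after Benjamini-Hochberg adjustment over the 15102 genes tested. Nothing in the labels says how replicates were kept apart, so the p-values measure the spread between these arrays. In whole tissue, fewer cells of a type and less RNA per cell cannot be told apart.

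Mt3, Mt2 and Mt1 lie in this order on the plus strand of chromosome 8, next to Mt4. The 300 bases around their annotated starts (250 before, 50 after) are shown because of how these genes differed with the scaling used. Mt3 had the largest member difference in Tat−/Meth vs. Tat−/Sal, and Mt1 was called in none of the comparisons. Capitals mark matches on either strand to TGCNCNC. This pattern is looser than the core of the metal response element, through which the zinc-sensing factor MTF1 acts. It includes that core, but a match need not be one. The windows are chr8:94152357-94152656 for Mt3, chr8:94172368-94172667 for Mt2 and chr8:94178839-94179138 for Mt1 (RefSeq, GRCm38.p6).
Mt3: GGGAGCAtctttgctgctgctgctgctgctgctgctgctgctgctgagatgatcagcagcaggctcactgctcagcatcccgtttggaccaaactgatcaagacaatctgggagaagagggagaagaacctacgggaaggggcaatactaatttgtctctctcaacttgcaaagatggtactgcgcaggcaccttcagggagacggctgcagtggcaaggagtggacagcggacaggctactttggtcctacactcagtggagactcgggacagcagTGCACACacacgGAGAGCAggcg
Mt2: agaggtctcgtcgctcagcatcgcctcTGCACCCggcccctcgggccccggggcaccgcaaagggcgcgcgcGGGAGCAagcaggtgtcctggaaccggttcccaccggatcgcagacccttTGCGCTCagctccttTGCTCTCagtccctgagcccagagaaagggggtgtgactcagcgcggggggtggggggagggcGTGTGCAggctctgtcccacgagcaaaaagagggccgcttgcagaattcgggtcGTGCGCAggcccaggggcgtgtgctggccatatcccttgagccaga
Mt1: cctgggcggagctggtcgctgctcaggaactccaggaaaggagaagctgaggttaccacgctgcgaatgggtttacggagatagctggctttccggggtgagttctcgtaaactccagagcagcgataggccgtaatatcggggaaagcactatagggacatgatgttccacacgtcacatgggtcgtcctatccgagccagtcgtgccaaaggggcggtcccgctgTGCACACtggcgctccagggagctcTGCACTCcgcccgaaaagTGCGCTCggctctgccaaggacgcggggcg
Mt2 had 6 matches, 3 on each strand. Mt1 had 3 matches, all on the plus strand and the first of them before the start, and Mt3 had 3, of which 2 lie after the start. Of all 32851 RefSeq windows of this length, 51.0% held at least 1 match and 7.1% held 3 or more, so the letters are common. The antioxidant response element, TGACNNNGC on either strand, was found in 12.4% of all windows. Of the 40 members, 34 had a window, and 8 of these held the second motif, Nfe2l2, Srxn1, Gstm5, Gclm, Prdx1, Txnrd1, Sod1 and Mt2. In Mt2 it did not overlap a TGCNCNC match. A match of letters is a description, and binding was not measured.

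In Tat−/Meth vs. Tat−/Sal, 23 of 40 members were called, or 57.5%, against 50.2% of all genes tested. Of these, 20 were higher (50% of the members, 35% of all genes) and 3 were lower (7.5% and 15.3%). The median difference of the members was 0.16 log2 units, and the median over all genes was 0.14. Mt3 alone exceeded 2-fold, while 6.85% of all genes were called above 2-fold. Tat+/Meth vs. Tat−/Meth, which shares the Tat−/Meth arrays with the first comparison, gave 21 called members, or 52.5%, against 54.4% of all genes. There 4 were higher (10% of the members, 16% of all genes) and 17 lower (42.5% and 38.5%). None exceeded 2-fold (7.22% of all genes), and the median was −0.17 with −0.15 over all genes. The total shares called were thus near the background in both. By direction the shares lay closer to it in the second comparison than in the first. The all-gene median was exceeded by 21 of 40 members in the first comparison and by 19 in the second, so about as many lay on each side. Whether the split by direction departs from the background was not tested. Without scaling the median over all genes in Tat−/Meth vs. Tat−/Sal was −0.29, and 1 member was called higher and 20 lower. Tat+/Meth vs. Tat−/Meth then had 17 called members higher and 1 lower. Differences less the median of all genes are therefore given below for members called in a comparison with Tat−/Meth.

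**Figure D1:**
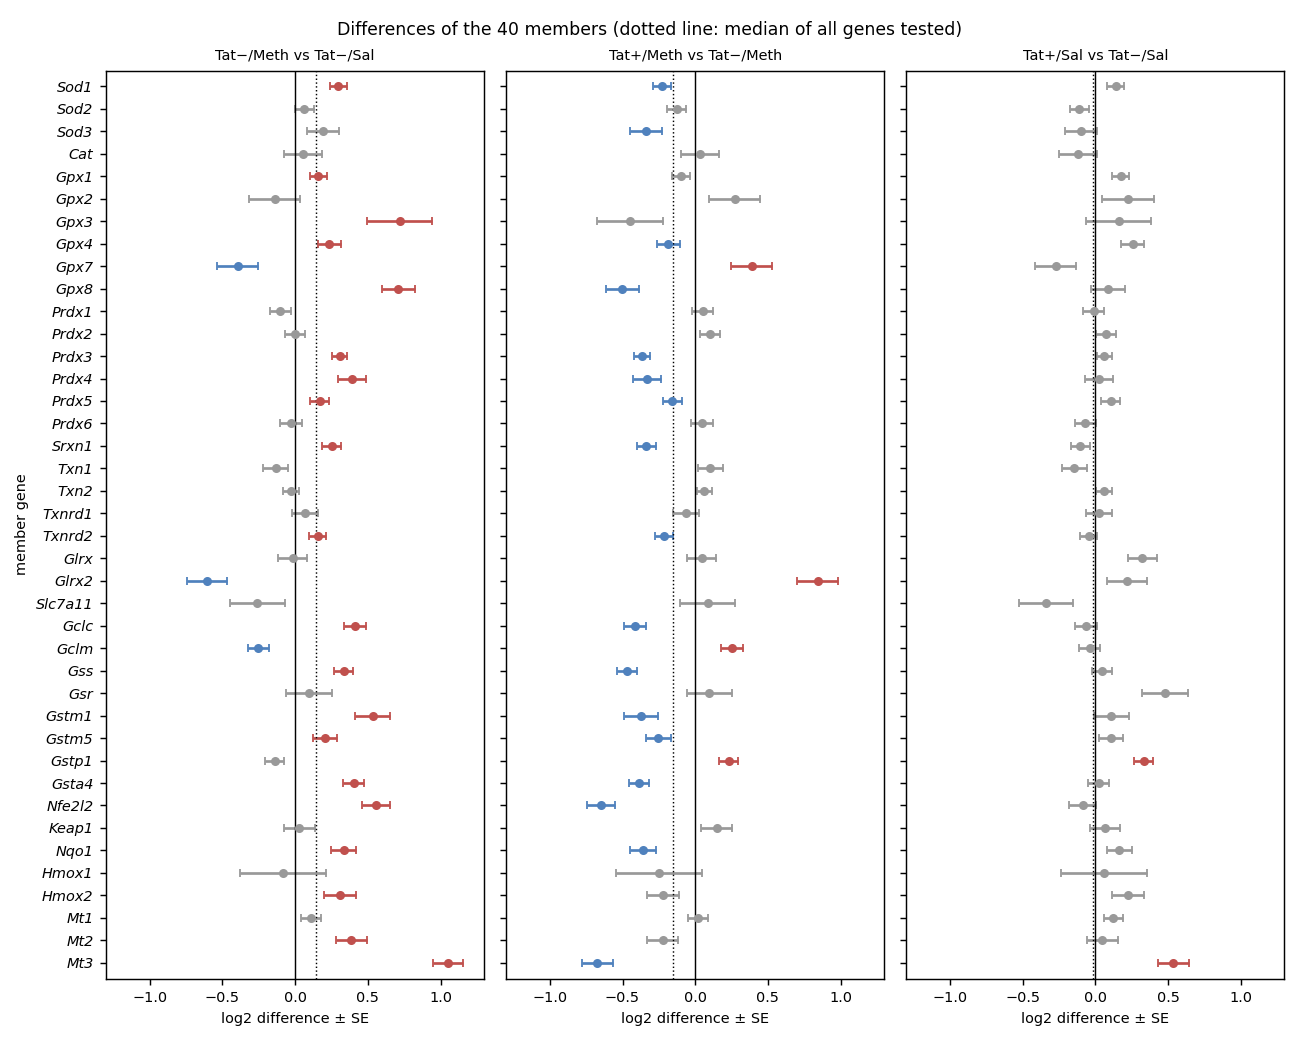
Log2 difference ± SE (x axis, 5 arrays against 5) of each of the 40 members (y axis) in 3 comparisons, with red for members called higher, blue for members called lower and grey for the others. Mt3 lies farthest right in Tat−/Meth vs. Tat−/Sal at 1.05. The dotted line is the median of all genes, at 0.14, −0.15 and −0.01. Without array scaling, 15 of the 20 members shown as higher in the first panel turn negative.

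Among the metallothioneins, Mt3, the brain-enriched metallothionein, was higher in Tat−/Meth than in every other group and also higher in Tat+/Sal than in Tat−/Sal. The arrays read 13.27, 13.12, 13.13, 13.25 and 13.36 log2 units for Mt3 in Tat−/Sal and 14.32, 14.39, 14.36, 14.25 and 14.05 in Tat−/Meth. The Tat+ values of Mt3 were 13.66, 13.43, 14.08, 13.80 and 13.83 on the Tat+/Sal arrays and 13.46, 13.48, 13.60, 13.58 and 13.89 on the Tat+/Meth arrays. Every Tat−/Meth array except replicate 5 lay above all 15 arrays of the other groups, and Tat+/Sal replicate 3 lay just above Tat−/Meth replicate 5. The difference was 1.05 ± 0.105 in Tat−/Meth vs. Tat−/Sal (adjusted p = 2.17e-07), or 0.91 above the median of all genes. It was −0.67 ± 0.105 in Tat+/Meth vs. Tat−/Meth (adjusted p = 3.33e-05), or −0.52 from the median. Both kept their sign without scaling, at 0.63 and −0.34.

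Mt2, which zinc and glucocorticoids induce in most tissues, passed the threshold in Tat−/Meth vs. Tat−/Sal alone among the comparisons. Log2 signals of Mt2 on single arrays were 16.84, 16.57, 16.85, 16.51 and 16.79 for Tat−/Sal and 17.19, 17.11, 16.84, 17.34 and 17.02 for Tat−/Meth. They were 16.81, 16.72, 16.96, 16.81 and 16.51 on the Tat+/Sal arrays and 16.77, 17.13, 16.72, 16.80 and 16.96 on the Tat+/Meth arrays. Tat−/Meth replicate 3 lay among the Tat−/Sal arrays, and the other 4 exceeded all of those. The difference was 0.39 ± 0.105, adjusted p = 0.00526, or 0.25 above the median of all genes, and it was −0.04 without scaling. In Tat+/Meth vs. Tat−/Meth it was −0.22 ± 0.105, adjusted p = 0.0791.

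Mt1, the other inducible metallothionein, was called in no comparison. The scaled log2 signal of Mt1 was 17.55, 17.37, 17.39, 17.31 and 17.50 on the Tat−/Sal arrays and 17.55, 17.60, 17.43, 17.59 and 17.49 on the Tat−/Meth arrays. It was 17.42, 17.48, 17.71, 17.65 and 17.48 on the Tat+/Sal arrays and 17.42, 17.68, 17.51, 17.53 and 17.61 on the Tat+/Meth arrays. The groups overlapped throughout, and the difference was 0.11 ± 0.0668, adjusted p = 0.187 in Tat−/Meth vs. Tat−/Sal, −0.03 from the median of all genes. The difference in Tat+/Sal vs. Tat−/Sal was 0.12 ± 0.0668, adjusted p = 0.302.

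**Figure D2:**
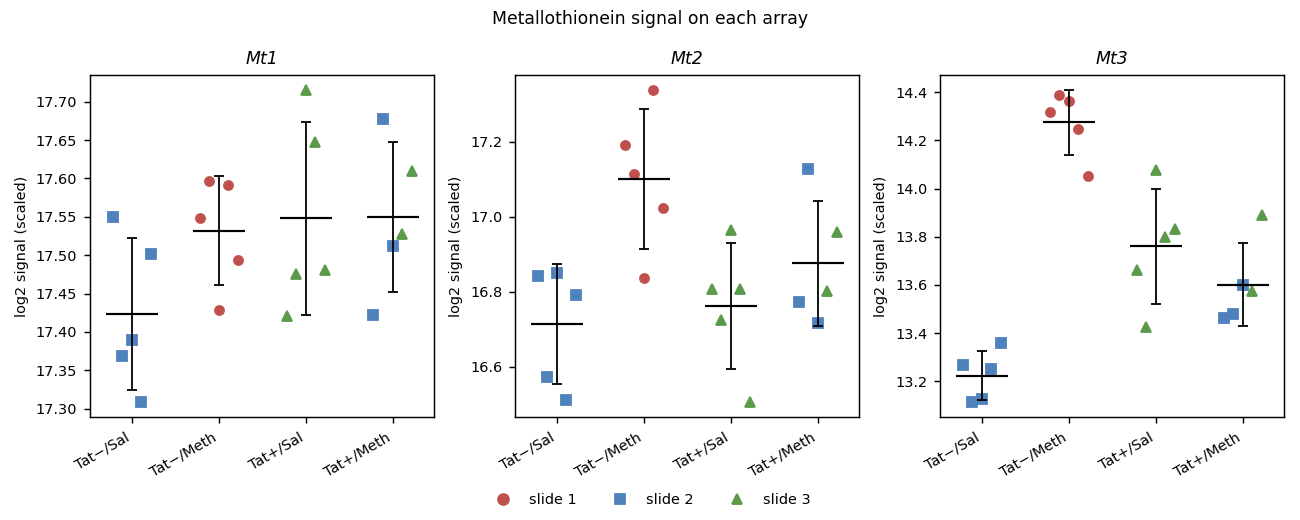
Scaled log2 signal (y axis) of Mt1, Mt2 and Mt3 on each of the 20 arrays by group (x axis), with symbols for the slide and black lines for the mean ± SD of 5 arrays. Mt3 averaged 14.27 in Tat−/Meth and 13.22 in Tat−/Sal, while the Mt1 groups overlap; the Mt2 difference turns negative without array scaling, at −0.04.

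Within groups, the arrays that were high for Mt1 were also high for Mt2. After the mean of the arrays of the same group and slide was subtracted, Pearson's r over 20 arrays was 0.753 (permutation p = 0.00111, 0.00444 after adjustment over 4 pairs) and Spearman's rho was 0.726 (permutation p = 0.00206, adjusted 0.00824). Without the 2 arrays farthest from the median of Mt1, r was 0.663. The pair Mt1 and Mt3 gave r = 0.507 (permutation p = 0.0487, adjusted 0.0649) and rho = 0.475 (permutation p = 0.0511, adjusted 0.0931), with r = 0.424 without 2 arrays. Mt2 and Mt3 gave r = 0.161 (permutation p = 0.534, adjusted 0.534) and rho = 0.104 (permutation p = 0.678, adjusted 0.678), with r = 0.332 without 2 arrays. Gclc and Gclm gave r = 0.723 (permutation p = 0.0198, adjusted 0.0396), but rho = 0.45 (permutation p = 0.0698, adjusted 0.0931) and r = 0.474 without 2 arrays, so that relation rests on those arrays. The 2 genes of a pair share an array's labelling and scaling, whose part in these values was not tested.

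Within the NRF2 pathway, Nfe2l2 was higher in Tat−/Meth than in Tat−/Sal and lower in Tat+/Meth than in Tat−/Meth, while Keap1 and Hmox1 were called in no comparison. The arrays read 11.21, 11.08, 10.79, 11.01 and 10.85 log2 units for Nfe2l2 in Tat−/Sal and 11.78, 11.56, 11.51, 11.55 and 11.31 in Tat−/Meth. The Tat+ values of Nfe2l2 were 10.87, 10.98, 10.77, 11.03 and 10.85 on the Tat+/Sal arrays and 10.81, 10.90, 10.66, 11.01 and 11.08 on the Tat+/Meth arrays. All 5 Tat−/Meth arrays lay above the 15 others, among which the groups overlapped. The differences were 0.55 ± 0.0959, adjusted p = 0.000116 in Tat−/Meth vs. Tat−/Sal (0.41 from the median of all genes) and −0.65 ± 0.0959, adjusted p = 1.83e-05 in Tat+/Meth vs. Tat−/Meth (−0.50 from the median). Both kept their sign without scaling, at 0.13 and −0.31, but neither was called (adjusted p = 0.472 and 0.104).

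Log2 signals of Keap1 on single arrays were 12.85, 12.85, 13.04, 13.01 and 12.91 for Tat−/Sal and 12.95, 12.87, 12.99, 12.97 and 13.01 for Tat−/Meth. They were 13.11, 13.06, 13.28, 12.47 and 13.06 on the Tat+/Sal arrays and 13.04, 13.07, 13.15, 13 and 13.26 on the Tat+/Meth arrays. Tat+/Sal replicate 4 was the lowest of the 20 arrays for Keap1, which encodes the adaptor that keeps NRF2 low. The differences lay between 0.03 in Tat−/Meth vs. Tat−/Sal (adjusted p = 0.843) and 0.18 in Tat+/Meth vs. Tat−/Sal (adjusted p = 0.668).

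Nqo1 encodes a quinone reductase that is a standard NRF2 target. The scaled log2 signal of Nqo1 was 8.37, 8.35, 8.52, 8.40 and 8.37 on the Tat−/Sal arrays and 8.81, 8.93, 8.61, 8.65 and 8.68 on the Tat−/Meth arrays. It was 8.46, 8.33, 8.52, 8.88 and 8.65 on the Tat+/Sal arrays and 8.32, 8.42, 8.36, 8.24 and 8.54 on the Tat+/Meth arrays. All 5 Tat−/Meth arrays lay above the Tat−/Sal and the Tat+/Meth arrays, and Tat+/Sal replicates 4 and 5 lay among them. The differences were 0.33 ± 0.0888, adjusted p = 0.00461 in Tat−/Meth vs. Tat−/Sal and −0.36 ± 0.0888, adjusted p = 0.00229 in Tat+/Meth vs. Tat−/Meth, or 0.19 and −0.21 from the medians of all genes. Without scaling they were −0.09 and −0.02.

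Hmox1 encodes the inducible heme oxygenase, another NRF2 target. The arrays read 8.73, 8.92, 8.90, 8.78 and 9.21 log2 units for Hmox1 in Tat−/Sal and 9.31, 9.24, 8.97, 8.78 and 7.82 in Tat−/Meth. The Tat+ values of Hmox1 were 9.0, 9.11, 8.76, 8.69 and 9.25 on the Tat+/Sal arrays and 8.91, 9.32, 7.41, 8.88 and 8.36 on the Tat+/Meth arrays. Tat−/Meth replicate 5 and Tat+/Meth replicate 3 were the lowest, at 7.82 and 7.41. The difference in Tat−/Meth vs. Tat−/Sal was −0.08 ± 0.295, adjusted p = 0.835. A second, dimmer probe of Hmox1 gave −0.62 there, and the probes had opposite signs in Tat+/Meth vs. Tat−/Meth, −0.25 and 0.76. Hmox2, the constitutive heme oxygenase, was 0.31 ± 0.11 higher in Tat−/Meth vs. Tat−/Sal (adjusted p = 0.0267), 0.17 from the median of all genes and −0.11 without scaling. Its second probe gave 0.26.

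The genes for the steps of glutathione synthesis differed in sign. Gclc, the catalytic subunit of glutamate-cysteine ligase, and Gss, glutathione synthetase, were higher in Tat−/Meth than in Tat−/Sal, and Gclm, the modifier subunit of the same ligase, was lower. Without scaling all 3 were lower, at −0.01, −0.09 and −0.68. The mean of Gclc was 12.99 ± 0.057 in Tat−/Sal, 13.40 ± 0.073 in Tat−/Meth, 12.92 ± 0.191 in Tat+/Sal and 12.98 ± 0.098 in Tat+/Meth (SD, n = 5 each). All 5 Tat−/Meth arrays lay above the 5 Tat−/Sal arrays. The differences were 0.41 ± 0.0755, adjusted p = 0.000205 in Tat−/Meth vs. Tat−/Sal and −0.41 ± 0.0755, adjusted p = 0.000167 in Tat+/Meth vs. Tat−/Meth, or 0.27 and −0.26 from the medians of all genes.

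Log2 signals of Gclm on single arrays were 10.13, 10.21, 10.24, 10.23 and 9.98 for Tat−/Sal and 9.82, 10.03, 9.98, 9.85 and 9.84 for Tat−/Meth. They were 10.30, 10.16, 10.16, 9.83 and 10.15 on the Tat+/Sal arrays and 10.20, 10.15, 10.16, 10.14 and 10.13 on the Tat+/Meth arrays. For Gclm, 3 Tat−/Meth arrays were lower than any Tat−/Sal array, and Tat+/Sal replicate 4 was as low as they were. The differences were −0.25 ± 0.0735, adjusted p = 0.00783 in Tat−/Meth vs. Tat−/Sal and 0.25 ± 0.0735, adjusted p = 0.00725 in Tat+/Meth vs. Tat−/Meth, or −0.39 and 0.40 from the medians of all genes.

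The scaled log2 signal of Gss was 9.18, 9.44, 9.50, 9.30 and 9.33 on the Tat−/Sal arrays and 9.85, 9.57, 9.66, 9.63 and 9.70 on the Tat−/Meth arrays. It was 9.36, 9.39, 9.39, 9.34 and 9.50 on the Tat+/Sal arrays and 9.28, 9.21, 9.27, 9.05 and 9.26 on the Tat+/Meth arrays. All Tat−/Meth values of Gss were above those of the other groups. The differences were 0.33 ± 0.0671, adjusted p = 0.000488 in Tat−/Meth vs. Tat−/Sal and −0.47 ± 0.0671, adjusted p = 1.29e-05 in Tat+/Meth vs. Tat−/Meth, or 0.19 and −0.32 from the medians of all genes.

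**Figure D3:**
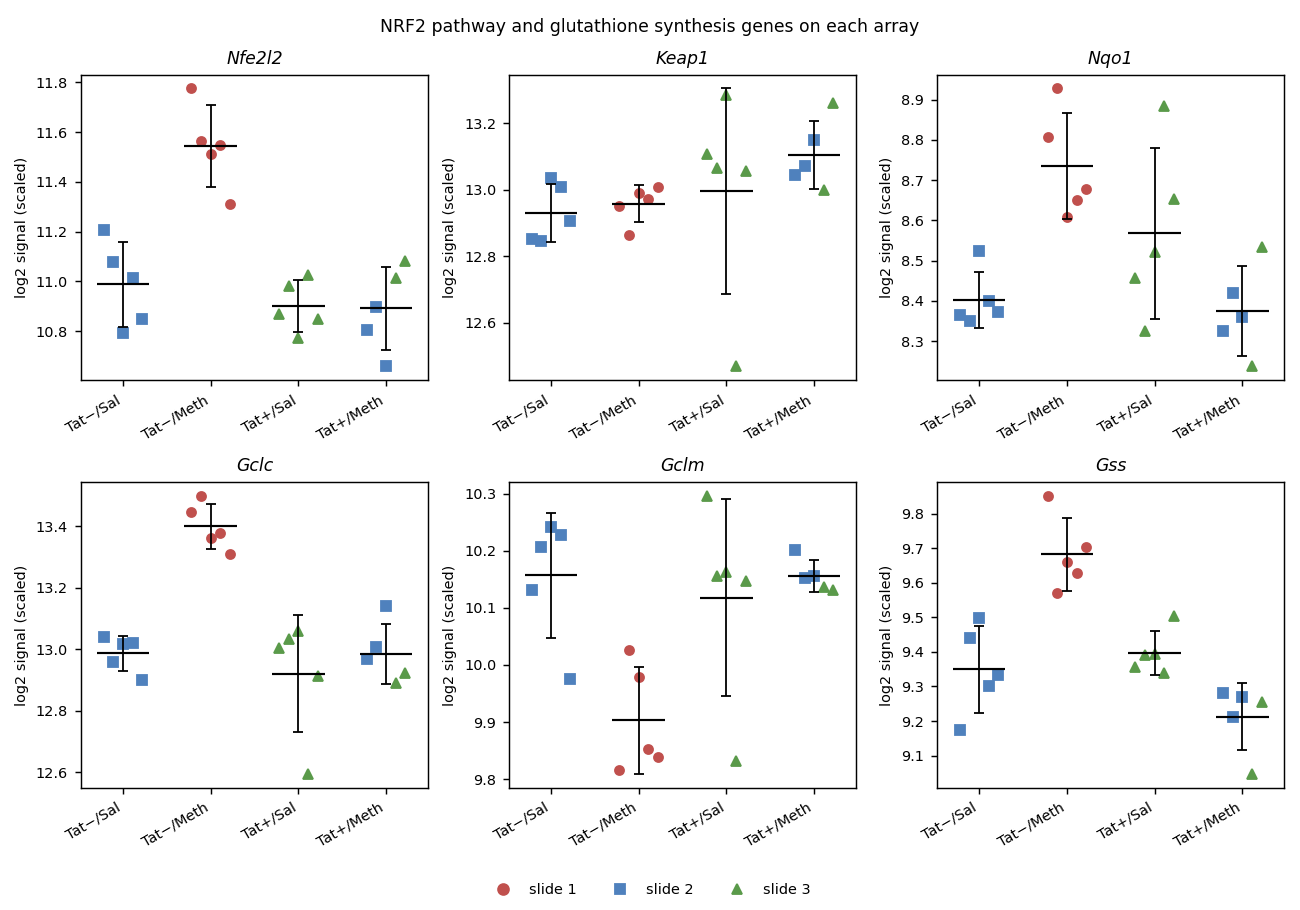
Scaled log2 signal (y axis) of Nfe2l2, Keap1, Nqo1, Gclc, Gclm and Gss on each of the 20 arrays by group (x axis), with symbols for the slide and black lines for the mean ± SD of 5 arrays. In Tat−/Meth vs. Tat−/Sal, Nfe2l2, Nqo1, Gclc and Gss were called higher and Gclm lower (−0.25), and without array scaling Nqo1, Gclc and Gss turn to −0.09, −0.01 and −0.09.

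Slc7a11 encodes the transporter that exchanges glutamate for the cystine from which glutathione is made. The arrays read 7.49, 8.29, 7.64, 8.06 and 8.36 log2 units for Slc7a11 in Tat−/Sal and 7.82, 7.80, 7.58, 7.67 and 7.68 in Tat−/Meth. The Tat+ values of Slc7a11 were 7.84, 7.22, 7.22, 7.80 and 8.08 on the Tat+/Sal arrays and 7.85, 7.67, 8.25, 7.57 and 7.64 on the Tat+/Meth arrays. The groups overlapped, the Tat−/Meth arrays spanned less than the others, and no comparison called it (−0.26 ± 0.187, adjusted p = 0.256 in Tat−/Meth vs. Tat−/Sal). Gsr, glutathione reductase, was also called in no comparison. Its values were 12.80, 12.73, 12.67, 12.57 and 12.94 in Tat−/Sal and 12.77, 12.96, 13.11, 13.71 and 13.56 in Tat+/Sal, a difference of 0.48 ± 0.157, adjusted p = 0.102. In Tat+/Meth they were 12.63, 12.75, 12.82, 13.38 and 13.10, so that replicates 4 and 5, on slide 3, averaged 0.51 above replicates 1 to 3, on slide 2. With slide as a fixed block the Tat+/Sal vs. Tat−/Sal difference was −0.03 ± 0.241, and the second probe of Gsr gave 0.06 without the block.

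Glutathione transferases couple glutathione to reactive compounds, and 3 of the 4 members were higher in Tat−/Meth than in Tat−/Sal, Gstm1 by 0.53 ± 0.12 (adjusted p = 0.00129), Gsta4 by 0.40 ± 0.0708 (adjusted p = 0.000142) and Gstm5 by 0.21 ± 0.0837 (adjusted p = 0.0486). From the median of all genes they lay by 0.39, 0.26 and 0.07. Without scaling Gstm1 was 0.11 and no longer called, and Gsta4 and Gstm5 turned to −0.02 and −0.22. The same 3 genes were lower in Tat+/Meth vs. Tat−/Meth, by −0.37, −0.39 and −0.25 (adjusted p = 0.0136, 0.000165 and 0.0158), or −0.22, −0.24 and −0.10 from the median. Without scaling these were −0.04, −0.05 and 0.08, none of them called. The second probe of Gstm1 gave 0.51 and −0.36. Gstm genes are close relatives, and their probes may share signal.

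Gstp1 is the pi-class transferase. Log2 signals of Gstp1 on single arrays were 14.33, 14.36, 14.40, 14.29 and 14.37 for Tat−/Sal and 14.25, 14.37, 14.09, 14.14 and 14.19 for Tat−/Meth. They were 14.49, 14.68, 14.71, 14.73 and 14.79 on the Tat+/Sal arrays and 14.33, 14.44, 14.46, 14.37 and 14.59 on the Tat+/Meth arrays. All 5 Tat+/Sal arrays lay above the 5 Tat−/Sal arrays. Except for replicate 2, the Tat−/Meth arrays lay below all Tat−/Sal arrays. The difference was −0.14 ± 0.0635, adjusted p = 0.0704 in Tat−/Meth vs. Tat−/Sal and 0.23 ± 0.0635, adjusted p = 0.00527 in Tat+/Meth vs. Tat−/Meth, where it lay 0.38 from the median of all genes. A second, dimmer probe, well above background on all arrays, gave the opposite sign in both, 0.29 and −0.28, and the mean over both probes gave −0.03 in the latter. The direction of Gstp1 in comparisons with Tat−/Meth therefore depended on the probe.

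Of catalase and the 6 glutathione peroxidases, 4 were higher and 1 lower in Tat−/Meth vs. Tat−/Sal, and the largest differences were in Gpx3, the secreted form, and Gpx8 and Gpx7, peroxidases of the endoplasmic reticulum. The scaled log2 signal of Gpx3 was 6.80, 6.39, 6.53, 6.76 and 6.56 on the Tat−/Sal arrays and 7.46, 7.33, 6.96, 7.33 and 7.55 on the Tat−/Meth arrays. It was 7.38, 6.89, 6.06, 6.69 and 6.82 on the Tat+/Sal arrays and 6.33, 7.05, 7.66, 6.60 and 6.76 on the Tat+/Meth arrays. All 5 Tat−/Meth arrays lay above the 5 Tat−/Sal arrays, and the Tat+ groups spanned both. The difference was 0.72 ± 0.224, adjusted p = 0.0124, or 0.58 from the median of all genes. Without scaling it was 0.30 and not called (adjusted p = 0.355). In Tat+/Meth vs. Tat−/Meth the scaled difference was −0.45 ± 0.224, adjusted p = 0.0983.

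The arrays read 9.58, 9.57, 9.27, 9.65 and 9.34 log2 units for Gpx8 in Tat−/Sal and 10.21, 10.14, 10.11, 10.16 and 10.35 in Tat−/Meth. The Tat+ values of Gpx8 were 9.45, 9.65, 9.25, 9.84 and 9.65 on the Tat+/Sal arrays and 9.28, 9.80, 9.72, 9.81 and 9.85 on the Tat+/Meth arrays. All Tat−/Meth values of Gpx8 were above those of the other groups. The differences were 0.71 ± 0.116, adjusted p = 6.54e-05 in Tat−/Meth vs. Tat−/Sal and −0.50 ± 0.116, adjusted p = 0.00138 in Tat+/Meth vs. Tat−/Meth, or 0.57 and −0.35 from the medians. Without scaling they were 0.29 and −0.16, and neither was called (adjusted p = 0.131 and 0.447).

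Log2 signals of Gpx7 on single arrays were 8.60, 8.56, 8.36, 8.59 and 8.41 for Tat−/Sal and 7.89, 7.84, 7.98, 7.97 and 8.87 for Tat−/Meth. They were 8.19, 8.27, 8.15, 8.29 and 8.27 on the Tat+/Sal arrays and 8.54, 8.49, 8.65, 8.35 and 8.44 on the Tat+/Meth arrays. Replicate 5 of Tat−/Meth was the highest of the 20 arrays for Gpx7, and the other 4 Tat−/Meth arrays were the lowest. The differences were −0.40 ± 0.14, adjusted p = 0.0251 in Tat−/Meth vs. Tat−/Sal and 0.39 ± 0.14, adjusted p = 0.0261 in Tat+/Meth vs. Tat−/Meth, or −0.54 and 0.54 from the medians of all genes. Without Tat−/Meth replicate 5 they were −0.59 and 0.58. Both calls for Gpx7 were lost without any one of Tat−/Meth replicates 1 to 4, where the differences were −0.33 to −0.36 and 0.32 to 0.36. The first was also lost without Tat−/Sal replicate 1 or 4, at −0.37 in each case, and the second without Tat+/Meth replicate 3, at 0.35.

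Gpx4, which reduces lipid hydroperoxides in membranes, was higher by 0.23 ± 0.0774 (adjusted p = 0.0175), and Gpx1, the abundant cytosolic form, by 0.16 ± 0.0594 (adjusted p = 0.0331). These lay 0.09 and 0.02 from the median of all genes, and without scaling they were −0.19 and −0.26. Tat+/Meth vs. Tat−/Meth gave −0.19 ± 0.0774, adjusted p = 0.0499 for Gpx4, −0.03 from the median and 0.15 without scaling. Cat was called in no comparison, with group means of 13.15 to 13.36, nor was Gpx2, the epithelial form, with group means of 8.31 to 8.68.

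Of the superoxide dismutases, Sod1, the cytosolic copper-zinc enzyme, averaged 16.15 ± 0.064 in Tat−/Sal and 16.45 ± 0.068 in Tat−/Meth, with all 5 Tat−/Meth arrays above the 5 Tat−/Sal arrays. The difference was 0.30 ± 0.0599, adjusted p = 0.000493 in Tat−/Meth vs. Tat−/Sal and −0.23 ± 0.0599, adjusted p = 0.00373 in Tat+/Meth vs. Tat−/Meth, or 0.16 and −0.08 from the medians of all genes, and both turned sign without scaling, to −0.12 and 0.11. Sod3, the extracellular form, was called only in Tat+/Meth vs. Tat−/Meth, at −0.34 ± 0.111, adjusted p = 0.0145, which was −0.19 from the median and −0.0016 without scaling. Sod2, the mitochondrial enzyme, was called in no comparison, and its largest difference was −0.13 ± 0.0649 in Tat+/Meth vs. Tat−/Meth (adjusted p = 0.103).

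Of the 7 genes for peroxiredoxins and sulfiredoxin, 4 were called higher in Tat−/Meth vs. Tat−/Sal and the same 4 lower in Tat+/Meth vs. Tat−/Meth. Prdx3, the mitochondrial peroxiredoxin, was 0.31 ± 0.0521 higher in Tat−/Meth vs. Tat−/Sal (adjusted p = 9.6e-05) and −0.37 ± 0.0521 in Tat+/Meth vs. Tat−/Meth (adjusted p = 1.22e-05), with no overlap between groups in either. Prdx4, which works in the endoplasmic reticulum, was 0.39 higher and Srxn1, which restores overoxidised peroxiredoxins, 0.25 (adjusted p = 0.00302 and 0.00471). Both were lower in Tat+/Meth vs. Tat−/Meth, by −0.33 and −0.34 (adjusted p = 0.00812 and 0.000383). Prdx5 was 0.17 and −0.16 in the same comparisons (adjusted p = 0.0369 and 0.0472). Prdx3, Prdx4, Prdx5 and Srxn1 lay 0.17, 0.25, 0.03 and 0.11 from the Tat−/Meth vs. Tat−/Sal median of all genes, and in the other comparison −0.21, −0.18, −0.0047 and −0.18. Without scaling they turned to −0.11, −0.03, −0.25 and −0.17 in Tat−/Meth vs. Tat−/Sal. The Tat+/Meth vs. Tat−/Meth difference then kept its sign for Prdx3, at −0.03, and turned to 0.01, 0.18 and 0.00 for Prdx4, Prdx5 and Srxn1. By their brightest probes, Prdx1, Prdx2 and Prdx6 were called in no comparison. The brightest probe of Prdx1 gave −0.10 in Tat−/Meth vs. Tat−/Sal and a dimmer one, well above background on all arrays, gave 0.57. Prdx6 probes differed in sign in Tat+/Sal vs. Tat−/Sal, where the brightest gave −0.07. The next brightest probes, well above background on all arrays, gave 0.21 and 0.20, each without overlap between these groups. The dimmest, well above background on 18 arrays, gave −0.44.

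Of the 6 members of the thioredoxin and glutaredoxin systems, Txnrd2, the mitochondrial thioredoxin reductase, was higher in Tat−/Meth vs. Tat−/Sal (0.15 ± 0.06, adjusted p = 0.0389, or 0.01 from the median of all genes and −0.27 without scaling), and Glrx2, the mitochondrial glutaredoxin, was lower. The scaled log2 signal of Glrx2 was 18.89, 18.98, 18.89, 18.08 and 19.09 on the Tat−/Sal arrays and 18.21, 18.25, 18.02, 18.16 and 18.25 on the Tat−/Meth arrays. It was 18.87, 19.02, 19.31, 18.91 and 18.91 on the Tat+/Sal arrays and 18.97, 19.02, 19.10, 18.95 and 19.07 on the Tat+/Meth arrays. Tat−/Sal replicate 4 lay with the Tat−/Meth arrays, and the other 14 arrays outside Tat−/Meth lay above every Tat−/Meth array. The differences were −0.61 ± 0.139, adjusted p = 0.0014 in Tat−/Meth vs. Tat−/Sal and 0.84 ± 0.139, adjusted p = 5.91e-05 in Tat+/Meth vs. Tat−/Meth, or −0.75 and 0.99 from the medians of all genes. With quantile normalization Glrx2 was −0.25 (adjusted p = 0.0731, not called) and 0.40, and the interaction given below was 0.29 (adjusted p = 0.159). This probe had the highest mean signal of the 55681 probes, although no array marked it as saturated. The other probes of Glrx2 averaged only 10.14 and 13.68 in Tat−/Sal, against 18.79 for the brightest. Whether the brightest probe reads Glrx2 RNA alone was not tested. The other probes gave −1.01 and −0.40 in the first comparison and 0.90 and 0.31 in the second, the same signs. In Tat+/Sal vs. Tat−/Sal they gave −0.41 and −0.17 and the brightest probe 0.22 (adjusted p = 0.39), which was not called. Txnrd2 was −0.21 ± 0.06, adjusted p = 0.00577 in Tat+/Meth vs. Tat−/Meth, −0.06 from the median, and 0.12 without scaling. Txn1, Txn2, Txnrd1 and Glrx were called in no comparison.

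**Figure D4:**
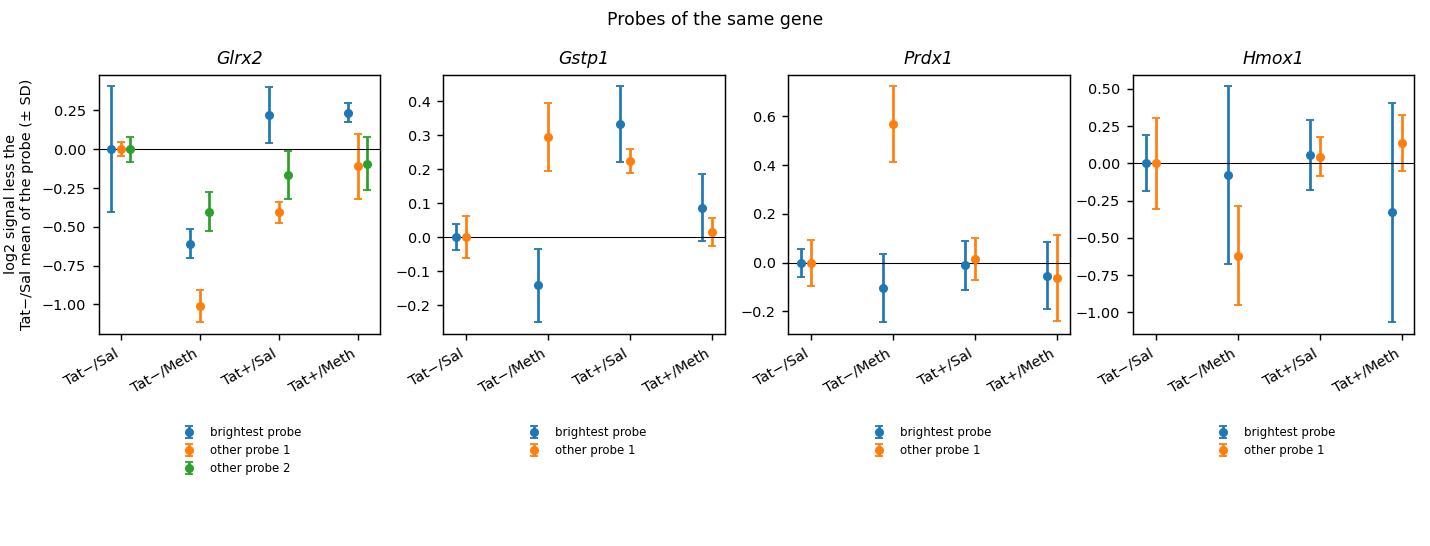
Mean log2 signal ± SD of 5 arrays (y axis) of each probe of Glrx2, Gstp1, Prdx1 and Hmox1 by group (x axis), less the mean of that probe in Tat−/Sal. In Tat−/Meth the 3 Glrx2 probes lie at −0.61, −1.01 and −0.40, whereas the 2 probes of Gstp1 and of Prdx1 lie on opposite sides of 0.

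The Tat comparison in saline mice does not involve Tat−/Meth. In Tat+/Sal vs. Tat−/Sal, 2 of 40 members were called, both higher, against 1.42% of all genes (0.768% higher and 0.649% lower). They were Mt3 at 0.54 ± 0.105, adjusted p = 0.0283 and Gstp1 at 0.33 ± 0.0635, adjusted p = 0.0265. For both genes every Tat+/Sal array lay above every Tat−/Sal array. The second probe of Gstp1 read 12.90, 12.83, 12.83, 12.75 and 12.76 in Tat−/Sal and 12.99, 13.04, 13.05, 13.09 and 13.04 in Tat+/Sal, a difference of 0.22 without overlap. It read 12.84, 12.81, 12.87, 12.77 and 12.87 in Tat+/Meth, so both probes were below their Tat+/Sal levels, by −0.24 and −0.21, which was not called for the first (adjusted p = 0.218). The median over members was 0.06, with −0.01 over all genes. With slide as a fixed block, no member was called by limma (2 at an unadjusted p under 0.05, Gstp1 and Nfe2l2). Without Tat−/Sal replicate 1, 2 or 4 or Tat+/Sal replicate 5 no member was called either, without Tat+/Sal replicate 4 Gstp1 alone was, and without Tat+/Sal replicate 1 the count was 4. With the block Mt3 was 0.32 ± 0.179 (adjusted p = 0.891) and Gstp1 0.27 ± 0.113 (adjusted p = 0.891). In these groups 5 Tat−/Sal arrays were on slide 2 and 5 Tat+/Sal arrays on slide 3, and in Tat+/Meth the slide 3 arrays were 0.22 above the slide 2 arrays for Mt3 and 0.07 for Gstp1. Among members not called, the largest positive differences were those of Gsr (0.48, larger than that of Gstp1), Glrx (0.32 ± 0.101, adjusted p = 0.0942) and Gpx4 (0.26 ± 0.0774, adjusted p = 0.0843).

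**Figure D5:**
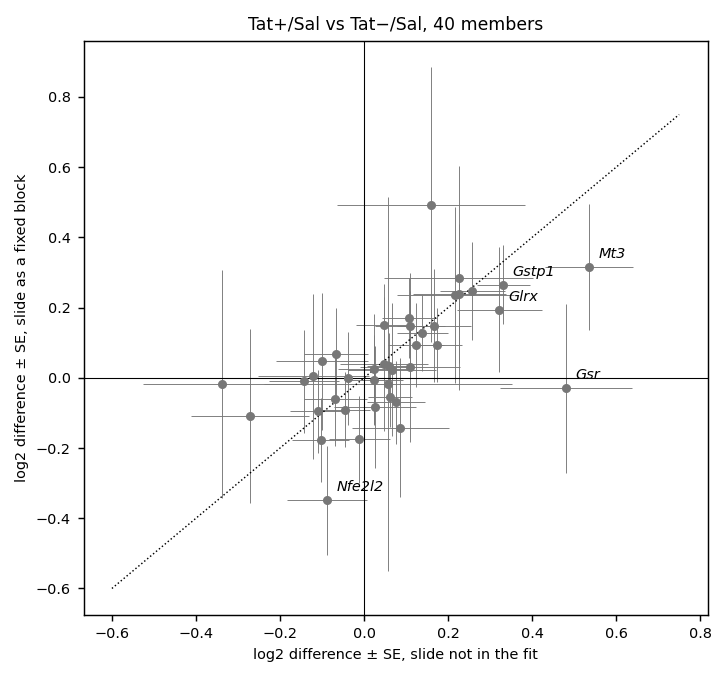
Log2 difference ± SE of the 40 members in Tat+/Sal vs. Tat−/Sal without slide in the fit (x axis) and with slide as a fixed block (y axis), with a dotted line for equal values. Mt3 moves from 0.54 to 0.32, Gstp1 from 0.33 to 0.27 and Gsr from 0.48 to −0.03.

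Meth in Tat+ mice changed no member past the threshold. In Tat+/Meth vs. Tat+/Sal limma called 0 of 40 members and 0.0% of all genes, with 6 members at an unadjusted p under 0.05, and the methods' t-test, adjusted, called 0. The differences of largest size were −0.39 ± 0.295 for Hmox1, −0.29 ± 0.101 for Glrx and −0.29 ± 0.157 for Gsr, and Mt3 was −0.16 ± 0.105, adjusted p = 0.555. Nfe2l2 was −0.01 ± 0.0959, adjusted p = 0.983. Within slide 3, with 2 Tat+/Meth arrays against 5 Tat+/Sal arrays, Mt3 differed by −0.03, Nfe2l2 by 0.15 and Gstp1 by −0.20, and the 40 members ranged from −0.34 to 0.26. In Tat+/Meth vs. Tat−/Sal limma likewise called 0 of 40 members and 0.0% of all genes, with 1 member, Mt3, at an unadjusted p under 0.05, and the methods' t-test, adjusted, called 0. Mt3 was 0.38 ± 0.105, adjusted p = 0.64, with all 5 Tat+/Meth arrays above the 5 Tat−/Sal arrays, and 0.29 within slide 2, with 3 arrays against 5.

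The interaction, the Meth difference of the Tat+ groups less the Meth difference of the Tat− groups, was called for 18 of 40 members against 36.0% of all genes. It was positive for 3 (12.4% of all genes) and negative for 15 (23.6% of all genes), with a median of −0.27 against −0.14 over all genes. Above 2-fold lay Mt3 alone, at −1.21 ± 0.148, adjusted p = 6.08e-06, and 7.44% of all genes were called above 2-fold. The next largest were Gpx7 at 0.66 ± 0.198, adjusted p = 0.0144, Glrx2 at 0.62 ± 0.196, adjusted p = 0.0185, Gpx8 at −0.59 ± 0.164, adjusted p = 0.00924, Nfe2l2 at −0.56 ± 0.136, adjusted p = 0.00347 and Nqo1 at −0.53 ± 0.126, adjusted p = 0.00325. Gclc and Gclm had opposite signs, −0.35 ± 0.107 and 0.29 ± 0.104 (adjusted p = 0.0165 and 0.0354). Without scaling Mt3 was −0.72, Gpx7 1.14, Glrx2 1.11 and Gclm 0.78, all still called. Gpx8, Nfe2l2 and Nqo1 fell to −0.10, −0.08 and −0.04 and were not called (adjusted p = 0.737, 0.79 and 0.853), and Gclc turned to 0.14. Leaving out scaling raised every gene's interaction by the same amount, so positive values could only grow. With median scaling Gpx7 was 0.43, Glrx2 0.39, Gclm 0.06 and Mt3 −1.44.

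Of 116 related genes tested outside the 40 members, 59 were called in Tat−/Meth vs. Tat−/Sal, or 50.9%, near the 50.2% of all genes. By direction 54 were higher (46.6%, against 35% of all genes) and 5 lower (4.31%, against 15.3%), with a median of 0.23. By list this was 13 higher and 1 lower of 26 other peroxidases and thiol enzymes, 8 and 0 of 20 other glutathione transferases, and 9 and 0 of 18 genes of glutathione turnover and cystine transport. It was 14 and 2 of 30 NRF2 partners and other targets, and 10 and 2 of 22 metal handling genes. All these counts are of scaled differences. Without scaling every difference in this comparison was lower by the same amount, and the median of all genes went from 0.14 to −0.29. Rises smaller than that shift turn negative, so the split by direction depends on the scaling. Among called rises the largest differences were those of Mt4, the metallothionein of squamous epithelia, at 1.02 ± 0.264 (adjusted p = 0.00377), the transferase Gstm4 at 0.93 ± 0.166 (adjusted p = 0.000157) and the selenoprotein Selenot at 0.91 ± 0.076 (adjusted p = 2.03e-08). Mt4 was well above background on all 5 arrays of Tat−/Meth, on 4 of Tat−/Sal, on 1 of Tat+/Sal and on 3 of Tat+/Meth. Mt4 averaged 6.29 for Tat−/Meth but 5.28 for Tat−/Sal, so of these groups it passed the signal limit of 6 only where it is high, and its rank supports nothing. The same held for Mgst2, at 6.60 and 5.89, and Trim16, at 6.29 and 5.84. The counts of rises include Mt4, Mgst2 and Trim16, so they hold genes that the high group let in. Mgst2, at 5.825 in Tat+/Meth, is also among the genes lower in Tat+/Meth vs. Tat−/Meth. Of the 5 called lower, the largest falls among genes well above background on all arrays were in the stress protein gene Sesn2 at −1.0004 ± 0.069 (adjusted p = 1.53e-09) and the zinc exporter Slc30a1 at −0.63 ± 0.0512 (adjusted p = 1.41e-08). The copper pump gene Atp7b was also called lower (adjusted p = 0.000715), but in Tat−/Meth only 2 of 5 arrays had it well above background, so the size of its fall is not given. Of the same 116 genes, 6 were higher (5.17%, against 16% of all genes) and 55 lower (47.4%, against 38.5%) in Tat+/Meth vs. Tat−/Meth. This split depends on the scaling too, since without it the median of all genes there went from −0.15 to 0.19. In Tat+/Sal vs. Tat−/Sal the membrane transferase Mgst3 was called, at 0.26 ± 0.06 (adjusted p = 0.0386), and limma called none in the comparisons of Tat+/Meth with either saline group.

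Some cell type markers were called in the same comparisons, 19 of 69 in Tat−/Meth vs. Tat−/Sal (27.5%, against 50.2% of all genes). For Tat+/Meth vs. Tat−/Meth the number was 25 (36.2%, against 54.4%). Several members, such as the metallothioneins and glutathione enzymes, are abundant in astrocytes. Of 10 astrocyte markers 5 were called higher (50%, against 35% of all genes) and 1 lower (10%, against 15.3%) in Tat−/Meth vs. Tat−/Sal. Their median was 0.22, with 0.14 over all genes. The gap junction gene Gja1 led at 0.84 ± 0.0908 (adjusted p = 5.6e-07), and Aldoc fell by 0.36. The mean log2 signal of the 10 markers per array ranged from 13.55 to 13.88 for Tat−/Meth. It was 13.42 to 13.50 for Tat−/Sal, 13.35 to 13.46 for Tat+/Sal and 13.34 to 13.47 for Tat+/Meth, and all 10 were well above background on every array. The log2 of their summed signal, 18.43 to 18.67 for Tat−/Meth and 18.53 to 18.79, 18.65 to 18.92 and 18.62 to 18.82 for the other groups in the same order, overlapped between groups, but Aldoc, at 17.72 to 18.03 in Tat−/Meth, carried most of that sum. Tat+/Meth vs. Tat−/Meth had 6 astrocyte markers lower (60%, against 38.5% of all genes) and 1, Aldoc, higher (10%, against 16%). The median was −0.28, with −0.15 over all genes, and Gja1 was at −0.82. All these marker values are scaled. The called rises of Aldh1l1, Slc1a3, S100b and Fgfr3 in Tat−/Meth vs. Tat−/Sal, 0.19 to 0.31, are smaller than the shift without scaling. They turn negative without it, while that of Gja1 stays positive. In Tat+/Meth vs. Tat−/Meth the shift goes the other way. Of the other lists in Tat−/Meth vs. Tat−/Sal, 2 of 8 oligodendrocyte, 3 of 8 microglia, 2 of 7 endothelial, 2 of 10 striatal neuron, 1 of 6 cortical neuron, 2 of 6 general neuron, 1 of 7 red blood cell and 0 of 7 choroid plexus markers were called. These counts became 3, 4, 2, 4, 1, 2, 1 and 1, in the same order, for Tat+/Meth vs. Tat−/Meth. In Tat+/Sal vs. Tat−/Sal no marker of any list was called. The part of cell makeup in the members' differences was not tested.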

How the data were processed

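The 20 arrays were read from the files that the authors deposited, which hold per-spot intensity values (processed signal, raw and background signals) written by Feature Extraction 10.7.3.1 from single-colour (cy3) scans. The processed signal is background-subtracted by that software. The methods describe a different scanner and dye, and the files were followed. Per array there were 62976 spots, 3671 of them control spots, which were left out together with 4278 outlier spots over all arrays. Repeated spots were averaged per probe as log2 values, and the arrays were brought to a common 75th percentile. The brightest probe stood for a gene, named by matching the probe's accession to RefSeq (27656 of 55681 probes), and genes entered the test with a mean of 6 or more in any group and 3 or more values in every group. Groups were compared with limma 3.58.1 (R 4.3.3) in a fit of all 4 groups. The same fit was also run on simulated data, with gene means and spreads taken from these arrays and no slide effect. The covariation was tested with 100000 permutations within group and slide (Python 3.11.15, numpy 2.4.6, scipy 1.17.1, pandas 2.3.3, figures with matplotlib 3.10.9). The number of arrays limits the precision.

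The members, the lists of related genes and of markers, and the rule for naming were chosen with earlier results of these data known. Values on every array are given for Mt1, Mt2, Mt3, Nfe2l2, Keap1, Nqo1, Hmox1 and Slc7a11, and for up to 4 members per direction with the largest called difference in each comparison. Of the related genes, up to 3 per direction with the largest called change in Tat−/Meth vs. Tat−/Sal are named, and any called without Tat−/Meth. The values of Gsr and of probes other than the brightest were added after their values were seen. The alternatives were other scalings, normexp background correction with an offset of 50 on the median signal, the authors' series matrix (intensity values, with 7831 values below 1 set to 1), other filters, the mean over probes, slide as a block, only the groups compared, a variance trend, the methods' t-test, other thresholds, a replicate block and each array left out. Promoter windows came from RefSeq (GRCm38.p6), and 6 members (Gclc, Gsta4, Hmox1, Sod3, Prdx6 and Gsr) had none in that table. Same-numbered arrays of different groups did not deviate together (median correlation 0.04 over 30 pairs), so the numbers were not taken as pairs. One marker gene is not reported here.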

Additional observations from a re-analysis of the deposited data

Results flagged for a closer look

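In 14 of 160 combinations of member and group, the highest or lowest of the 5 arrays lay far from the other 4 for its group's range, a rule that chance meets in about 1 of 20 groups. Tat+/Sal replicate 4 was such an array for Gstm1 and Keap1, and Tat−/Meth replicate 5 for Cat and Gpx7. In log2 units, the arrays on the low or high side were Cat in Tat−/Meth replicate 5 (13.54, others 13.24 to 13.31), Gpx2 in Tat+/Sal replicate 3 (9.60, others 8.33 to 8.49), Gpx7 in Tat−/Meth replicate 5 (8.87, others 7.84 to 7.98), Gpx8 in Tat+/Meth replicate 1 (9.28, others 9.72 to 9.85) and Prdx3 in Tat−/Meth replicate 1 (12.94, others 12.78 to 12.81). The same held for Prdx3 in Tat+/Meth replicate 5 (12.64, others 12.38 to 12.43), Srxn1 in Tat+/Meth replicate 5 (14.29, others 14.12 to 14.16), Txn2 in Tat+/Sal replicate 5 (15.14, others 15.26 to 15.31), Glrx in Tat−/Meth replicate 1 (10.03, others 9.68 to 9.77) and Glrx2 in Tat−/Sal replicate 4 (18.08, others 18.89 to 19.09). It also held for Gstm1 in Tat+/Sal replicate 4 (15.20, others 14.64 to 14.71), Gsta4 in Tat+/Sal replicate 3 (9.57, others 9.76 to 9.78), Keap1 in Tat+/Sal replicate 4 (12.47, others 13.06 to 13.28) and Nqo1 in Tat−/Sal replicate 3 (8.52, others 8.35 to 8.40).

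The Meth difference in Tat+ mice and that in Tat− mice differed by the interaction test (limma adjusted p under 0.05 over 15102 genes, n = 5 arrays a group) for 18 members. The interaction was positive for Gpx7 0.66, Glrx2 0.62 and Gclm 0.29, and negative for Sod1 −0.37, Gpx1 −0.27, Gpx4 −0.44, Gpx8 −0.59, Prdx3 −0.43, Prdx5 −0.26, Gclc −0.35, Gss −0.52, Gstm1 −0.48, Gstm5 −0.36, Gsta4 −0.41, Nfe2l2 −0.56, Nqo1 −0.53, Hmox2 −0.45 and Mt3 −1.21. All rest on the Tat−/Meth arrays, which share slide 1, so group and slide cannot be told apart.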

How the results depend on the processing

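Without scaling between arrays, which moved the median of all genes from 0.14 to −0.29 in Tat−/Meth vs. Tat−/Sal, from −0.15 to 0.19 in Tat+/Meth vs. Tat−/Meth and from −0.14 to 0.35 in the interaction, called differences changed sign as follows. Those of Tat−/Meth vs. Tat−/Sal became Sod1 −0.12, Gpx1 −0.26, Gpx4 −0.19, Prdx3 −0.11, Prdx4 −0.031, Prdx5 −0.25, Srxn1 −0.17, Txnrd2 −0.27, Gclc −0.0095, Gss −0.088, Gstm5 −0.22, Gsta4 −0.0201, Nqo1 −0.089, Hmox2 −0.11 and Mt2 −0.035. Those of Tat+/Meth vs. Tat−/Meth became Sod1 0.11, Gpx4 0.15, Prdx4 0.0065, Prdx5 0.18, Srxn1 0.0024, Txnrd2 0.12 and Gstm5 0.085. In the interaction they became Sod1 0.12, Gpx1 0.21, Gpx4 0.043, Prdx3 0.057, Prdx5 0.22, Gclc 0.14, Gstm1 0.0029, Gstm5 0.12, Gsta4 0.075 and Hmox2 0.034. The mean over probes turned Gstp1 in Tat+/Meth vs. Tat−/Meth to −0.025. No other called difference of a member changed sign under any alternative.

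The numbers of called members under other settings were as follows. The count for Tat−/Meth vs. Tat−/Sal was 9 with median scaling, 1 with a 2-fold limit and 0 with a 3-fold limit at an adjusted p under 0.01. Both fold limits left 0 in Tat+/Meth vs. Tat−/Meth. In the interaction 4 were called with median scaling, 1 above 2-fold and 0 above 3-fold. In Tat+/Sal vs. Tat−/Sal the count was 0 with median scaling, no scaling, normexp, no filter, slide as a fixed block, only the groups compared, the methods' t-test and either fold limit. It was 1 with the series matrix values and 6 with slide as a random block. In both comparisons of Tat+/Meth with saline groups it was 0 under every setting. When each array was left out in turn, the count was 17 to 23 in Tat−/Meth vs. Tat−/Sal, 18 to 22 in Tat+/Meth vs. Tat−/Meth, 0 to 4 in Tat+/Sal vs. Tat−/Sal and 14 to 20 in the interaction. Calls were lost in some of these 20 fits, with the number of fits, for Gpx1 5, Gpx7 6, Prdx5 7, Txnrd2 6, Gstm5 12 and Hmox2 4 in Tat−/Meth vs. Tat−/Sal, for Gpx4 14, Gpx7 5 and Prdx5 12 in Tat+/Meth vs. Tat−/Meth, and for Prdx5 7, Gclm 7, Gstm1 8 and Hmox2 8 in the interaction.

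For related genes outside the members, settings that were applied after the data had been seen gave 35 with median scaling, 3 above 2-fold and 0 above 3-fold in Tat−/Meth vs. Tat−/Sal. They gave 34 without scaling and 0 with either fold limit in Tat+/Meth vs. Tat−/Meth, and 17, 3 and 0 in the interaction with median scaling and the fold limits. In Tat+/Sal vs. Tat−/Sal they gave 2 with quantile normalization and with the replicate block, 3 with a variance trend, 14 with slide as a random block, 0 to 4 with each array left out, and 0 with median scaling, no scaling, normexp, the series matrix, no filter, the mean over probes, the fixed slide block, only the groups compared, the methods' t-test and the fold limits. The correlation of Mt1 and Mt2 was 0.762 and that of Gclc and Gclm 0.917 without scaling. The cause of these changes was not tested.

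With the replicate block 22 members were called in Tat−/Meth vs. Tat−/Sal, 21 in Tat+/Meth vs. Tat−/Meth, 3 for Tat+/Sal against Tat−/Sal, 19 in the interaction and 0 between Tat+/Meth and either saline group. The correlation of same-numbered arrays of different groups ran from −0.176 to 0.354. A fixed slide block could not be fitted for comparisons with Tat−/Meth, nor could the fit of only the groups compared or the methods' t-test for the interaction. Signal limits little here, since every member's probe was well above background on all arrays.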
